A study of Bubalus bubalis with 8 samples.

Results

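The epithelial junction genes described here were selected by gene name, from a list drawn up with earlier results of these data known. CDH1, JUP, DSP, OCLN, CLDN1, CLDN3, CLDN4, F11R and TJP1 are 9 of the 24839 gene names on the array, and they were carried by 29 of the 43653 probes outside the control spots. A rectangle in the lower part of the array was dark in the control hybridisation, and the 3 junction probes inside it (1 each of CDH1, JUP and TJP1) were left out. The remaining 26 probes, called junction probes below, are compared with the 40296 probes outside the rectangle.

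The cells were primary mammary epithelial cells (MECs) of buffalo (Bubalus bubalis), grown from the gland of 1 adult animal and used at passage 10 on collagen-treated 12-well plates. Control cells (CTR) stayed at 37 °C. Treated cells spent 1 h at 42 °C, went back to 37 °C with 5% CO2, and were trypsinised after 30 min or after 2, 4, 8, 12, 16 or 24 h. Total RNA was labelled with Cy3 and hybridised to a bovine 4x44K oligonucleotide array in 1 colour, with 1 array per condition. No condition had a second array, so there is no replicate check, no test was made and no p-value is given. All values are only as precise as single arrays allow.

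Epithelial cells are held to their neighbours by several kinds of junction. Tight junctions seal the space between cells near the lumen and, in the mammary gland, keep milk apart from blood. Adherens junctions and desmosomes lie below them and tie the cells mechanically to one another, the former through the actin skeleton and the latter through keratin filaments. Among the genes described, CDH1 encodes E-cadherin, the adhesive protein of adherens junctions. JUP encodes plakoglobin, which links cadherins to DSP (desmoplakin), the protein that anchors keratin filaments at the desmosome. OCLN (occludin), CLDN1, CLDN3 and CLDN4 (claudins) and F11R (junctional adhesion molecule A) span the membrane at tight junctions, and TJP1 (ZO-1) is the scaffold beneath them.

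Probes are designed from cattle sequence, and how closely each one matches buffalo was not analysed here. The array files place them on the cattle build Btau_3.1 and give each sequence 5′ to 3′. The DSP probes come first, because probes along this long transcript gave different changes. The 5′-most of the 6, which crosses an intron at chr23:48742292-48742782 (minus strand), and the probe at chr23:48729152-48729211, whose capitals mark a stop codon ending the reading frame that is open over the rest of the probe, are shown whole.
DSP A_73_P348601: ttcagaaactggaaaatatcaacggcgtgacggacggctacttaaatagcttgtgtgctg
DSP A_73_P062971: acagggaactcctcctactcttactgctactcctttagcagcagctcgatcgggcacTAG
For the JUP pair, whose probes lie at chr19:43320075-43320134 and chr19:43320318-43320377 on the minus strand and differ most from each other, and for the F11R pair at chr3:9446062-9446121 and chr3:9447511-9447570 on the plus strand, the first 30 of 60 bases are given.
JUP A_73_P508098: gggggaggtcccagcagagttttattatga
JUP A_73_115739: agagattgttcccacttcaggacactgcct
F11R A_73_P386251: aggttgtgttttataataatttcagcaatg
F11R A_73_120882: cagccttggaatttacttctccagctaaca
The first 30 bases are also given for the TJP1 probe at chr21:28251752-28251811 (minus strand), which was more than 3-fold lower at 16 h.
TJP1 A_73_103896: atggcacatcagcacaacttctgtttagat
The CLDN1 probes at chr1:78608404-78608463 and chr1:78608440-78608499 overlap by 24 bases, in capitals, so they are not separate readings of this gene. Bases 31 to 60 of the first and 1 to 30 of the second are printed.
CLDN1 A_73_P047191: attactGCTTCCCACTGAGTAATCATCTCA
CLDN1 A_73_114314: GCTTCCCACTGAGTAATCATCTCAaatgag

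A level is the log2 intensity of a probe minus the 75th percentile of its array, so that 0 is the intensity at that percentile. A change is the level at a time point minus that in CTR. Its error comes from bright probes spotted 4 times, as the SD between spots on both arrays combined, and was 0.30, 0.36, 0.36, 0.29, 0.33, 0.52 and 0.36 at the 7 time points in order of time. It covers spots within an array and not cultures. A probe was detected when its flag marked it as well above background. At 30 min the scanner intensities disagreed with the authors' own log2 values (Pearson's r of 0.755 across 5557 bright probes, with a median shift of 2.86, against 1.00 at the other time points), so those log2 values were used there. A probe then counted as detected if its level reached the least sensitive limit among the remaining 7 arrays. A dim probe was set to the higher of its own value and the detection limit of its array, which makes the change a bound. Probes dim on both arrays have no value.

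Each of 2 slides held 4 arrays. Slide 1 held CTR with 8, 12 and 24 h. Slide 2 held 30 min with 2, 4 and 16 h, and at these time points the effects of slide and of heat stress cannot be told apart. The slide 2 arrays also carried markers of other cells. Of the 32 leukocyte probes (13 genes), 7 were detected in CTR, 19 at 30 min, 23 at 2 h and 7 to 12 on the other arrays, and the log2 of their summed level was 5.16 in CTR, 8.35 at 30 min, 7.97 at 2 h and between 4.50 and 5.82 elsewhere. Both CD14 probes were detected at 30 min and 2 h and on no other array, and ITGAM on none. Of the 67 fibroblast probes, 41 were detected at 16 h and 31 at 4 h against 23 in CTR, with DCN detected by 6, 5 and 1 of 7 probes, while PDGFRB was detected on no array. The summed fibroblast level was lower at 16 h (10.2) than in CTR (10.8), and FN1, on this list too, was lower. Of the 19 endothelial probes, 4 were detected at 16 h and 0 in CTR. Of 36 epithelial probes other than CDH1, 22 to 32 were detected on each array and their summed level ran from 9.66 at 30 min to 10.6 at 16 h. EPCAM, KRT5, KRT7, KRT14 and KRT19 were detected on all 8 arrays, whereas none of the 3 KRT18 probes was detected in CTR and all 5 probes of VIM were detected on every array. HSPA1A, the inducible HSP70, was higher by 3.42, 2.84, 1.81, 4.56, 2.95 and 0.70 from 30 min to 16 h and changed by -1.42 at 24 h on probe A_73_P359866. The other HSPA1A probes with a value were also higher at 30 min, 2, 8 and 12 h, whereas A_73_P275126 changed by -0.43 at 4 h and -0.85 at 16 h and A_73_104629 by -0.06 at 16 h. In bulk RNA, fewer cells of a type and less RNA per cell cannot be told apart, and the part that these other cells have in the values below was not tested.

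**Figure D1:**
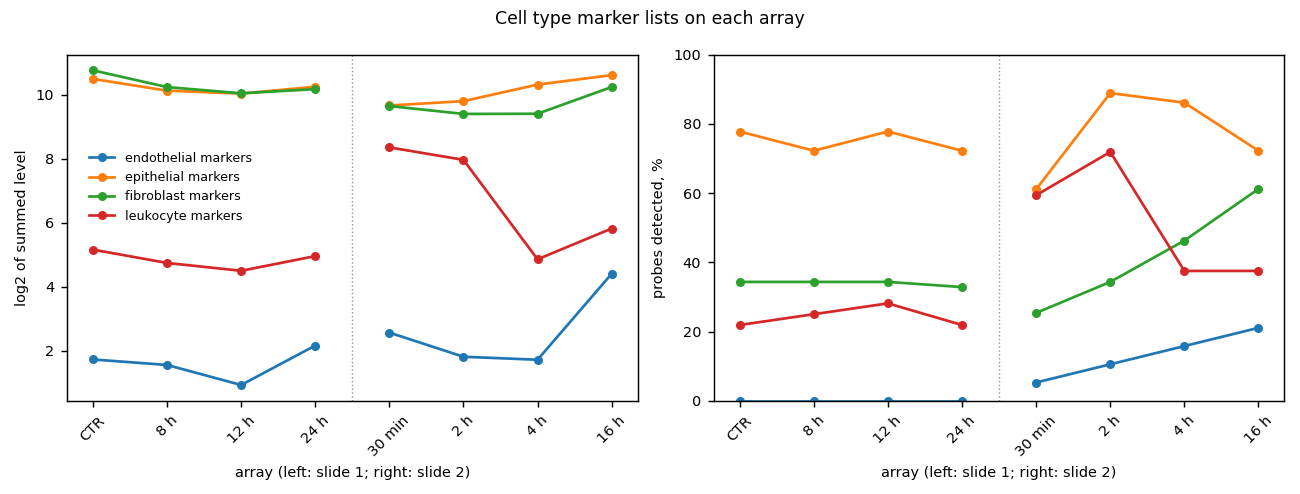
Log2 of the summed level (left) and percent of probes detected (right) for the epithelial, fibroblast, endothelial and leukocyte marker lists on each of the 8 arrays, 1 point per array. Leukocyte probes stand highest at 30 min and 2 h, and fibroblast probes are detected most often at 16 h (41 of 67).

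Most junction probes stayed within 3-fold of CTR where they could be read. Of the 26 probes, 10 were detected on all 8 arrays, 25 on at least 1 and 1 (OCLN A_73_P482083) on none. Over 7 time points they gave 182 pairs with CTR. Both arrays were above background in 101 pairs, 1 of them was dim in 18 pairs that gave a bound, and 63 pairs gave no value. Changes of 3-fold or more numbered 4 upward and 3 downward, and 112 pairs lay within 3-fold, among which a bound does not limit the true change.

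The 7 pairs past 3-fold came from 4 probes and lay on slide 2. At 4 h, 2 of 18 junction probes with a value were 3-fold higher and 0 lower, against 3.72% and 6.28% of all probes. At 16 h, 2 of 17 were higher and 2 lower, against 7.44% and 8.74%. At 2 h, 0 of 17 were higher and 1 lower, against 7.64% and 9.31%, and at 30 min 0 of 16 changed in either direction, against 9.13% and 5.24%. No junction probe passed on the slide of CTR, where few probes did. Of all probes, 0.67% were higher and 0.218% lower at 8 h. The shares at 12 h were 0.208% and 0.602%. They were 0.223% and 0.862% at 24 h. Without the arrays on which most leukocyte probes (30 min and 2 h) or most fibroblast probes (16 h) were detected, 2 calls were left, both higher at 4 h. With counts this small, the shares of the junction probes are not apart from those of all probes.

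The median change of the junction probes with a value, bounds included, was -0.43, -0.26, 0.08, -0.14, -0.18, 0.21 and -0.09 at the 7 time points in order of time. Over all probes with a value it was -0.21, -0.20, -0.02, -0.13, -0.20, -0.10 and -0.16 in the same order. The gap between the junction probes and all probes has no error of its own here and was not tested. Over the pairs measured on both arrays the medians were -0.41, -0.41, -0.01, -0.14, -0.21, 0.25 and 0.10, so that the sign at 4 h and 24 h depends on the bounds. Scaling to the median of each array turned the 30 min and 2 h medians above 0 together with the median of all probes, and is given with the other settings in the closing section. Changes larger than 2 errors were found in 5 of 11, 7 of 16, 4 of 16, 5 of 15, 3 of 16, 2 of 14 and 0 of 13 measured junction probes from 30 min to 24 h.

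**Figure D2:**
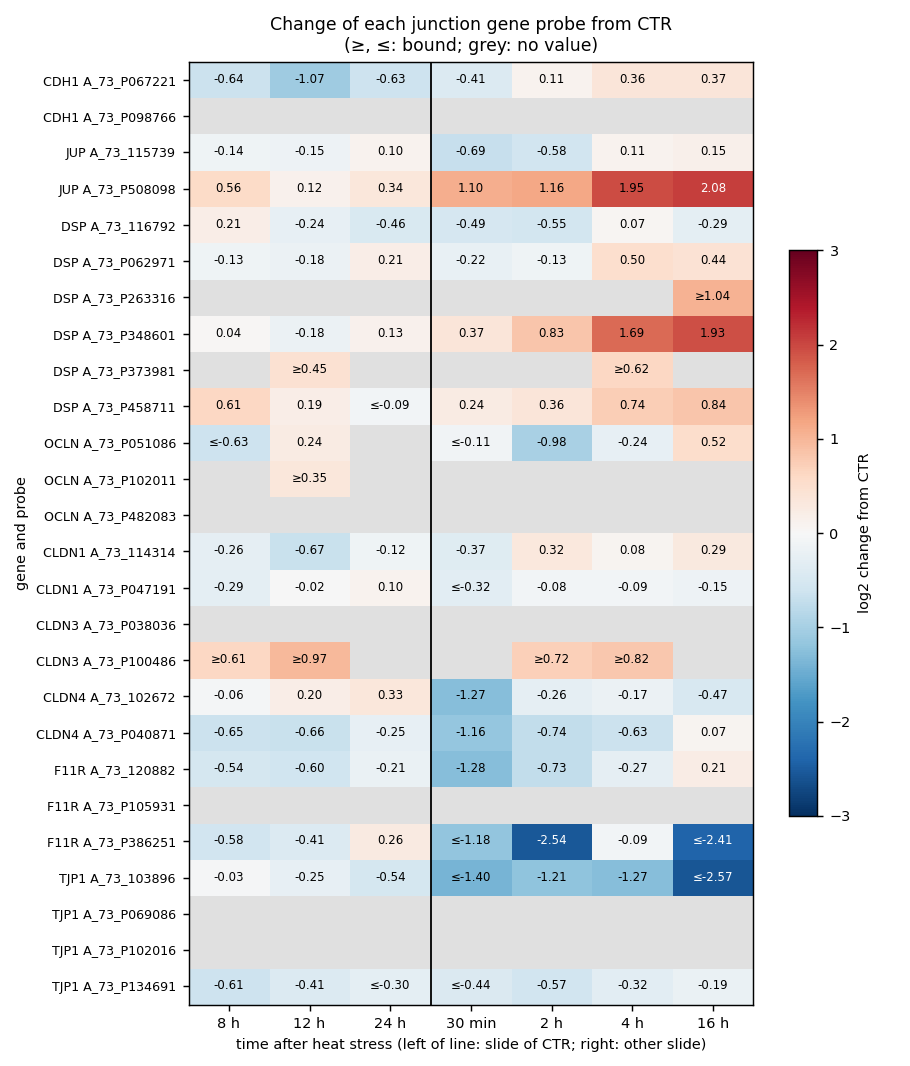
Log2 change of each of the 26 junction probes (rows) from CTR at 7 time points (columns), in colour and in figures, with slide 1 to the left of the line. Bounds carry ≥ or ≤ and grey cells have no value. The values past 3-fold are 2 JUP, 2 DSP, 2 F11R and 1 TJP1 cell, on the right.

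Among adherens junction genes, CDH1 had its lowest levels on the slide of CTR. Probe A_73_P067221, detected on every array, read 3.41 in CTR and 2.77, 2.34 and 2.78 at 8, 12 and 24 h on that slide, and 3.00, 3.53, 3.77 and 3.78 on the other, in order of time. CTR was the highest of its slide, and 12 h was the lowest of all 8 arrays. The change was -1.07 ± 0.33 at 12 h (error from spots, 1 array each), a 2.10-fold lower signal. The 8 h and 24 h changes were -0.64 ± 0.29 and -0.63 ± 0.36. Of all probes detected on both arrays, 4.31% had a lower change than CDH1 at 12 h, and 11.9% and 12.4% did so at 8 h and 24 h. Bright probes around the CDH1 spot were also low at 8 h, and with the local offset subtracted the changes were -0.27, -0.87 and -0.57, so that the 8 h value came within its error. The 12 h value stayed between -1.07 and -0.58 in the settings tried and kept its sign. On slide 2 the 4 levels were within 0.78 of each other, and the changes from CTR (-0.41, 0.11, 0.36 and 0.37) exceeded their error by little or not at all on the scale used here. With arrays scaled to their median the 30 min change turned to 0.55. That scale also moved the median of all detected probes from -0.18 to 0.91 at 4 h. The second CDH1 probe, A_73_P098766, was detected at 2 h and 4 h only and gave no change.

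JUP was read differently by its 2 probes, which lie 243 bases apart near the 3′ end. A_73_P508098 had levels of 5.42 in CTR and 5.98, 5.54 and 5.75 on the other arrays of slide 1 (8, 12 and 24 h), against 6.52, 6.58, 7.36 and 7.49 on slide 2 (30 min and 2, 4 and 16 h), with no saturated spot. On the log2 values used at 30 min, all 4 arrays of slide 2 stood above all 4 of slide 1. Within slide 2 the 4 h and 16 h arrays stood above the others by more than the error of 4 h. The 30 min scanner intensity of this spot, not used here, was 21.6 without the flag, against a 75th percentile of 48.6. On that scale the 30 min array stood below slide 1. The change was 1.95 ± 0.36 at 4 h, 3.85-fold, and 2.08 ± 0.52 at 16 h, 4.22-fold. Only 0.885% of probes detected on both arrays had a higher change at 4 h. Subtraction of the local offset, which was -0.30 around this spot in CTR, brought the 4 h change to 1.52, under 3-fold, and the 16 h change to 1.70.

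A_73_115739, the other JUP probe, had levels of 3.06 in CTR and 2.37, 2.48, 3.17, 2.92, 2.91, 3.21 and 3.15 from 30 min to 24 h. The 30 min and 2 h arrays were the lowest, at changes of -0.69 and -0.58, which turned to 0.27 and 0.13 when arrays were scaled to their median (0.08 at 2 h with normexp background correction), and the other 5 changes were between -0.15 and 0.15, inside the error. At 4 h the change of 0.11 became 1.20 with arrays scaled to their median, 0.74 with normexp and 0.40 with the local offset subtracted. The change of this probe minus that of the first was -1.79, -1.74, -1.83 and -1.92 on slide 2 in order of time. On slide 1 it was -0.70, -0.27 and -0.24 at 8, 12 and 24 h, so the probes differed across slide 2 and not at 4 h and 16 h alone. At 4 h and 16 h JUP is more than 3-fold higher by A_73_P508098 and within the error of CTR by A_73_115739 on the scale used here. Which of them follows the transcript in buffalo was not tested.

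DSP showed the same kind of split along its transcript. The 5′-most probe, A_73_P348601, lies 13831 bases upstream of the 3′-most on the genome and read 0.92 in CTR and 0.96, 0.74 and 1.04 on the rest of slide 1, against 1.29, 1.75, 2.61 and 2.85 on slide 2, in order of time. Again slide 2 stood above slide 1 on the log2 values used at 30 min, and 4 h and 16 h above the rest. The 30 min scanner intensity of this spot, not used here, was likewise 21.6 without the flag, against a 75th percentile of 48.6. The change was 1.69 ± 0.36 at 4 h, 3.24-fold, and 1.93 ± 0.52 at 16 h, 3.81-fold. With normexp background correction the 16 h change was 1.35 and no longer 3-fold, while subtraction of the local offset gave 1.87 at 4 h and 2.09 at 16 h.

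The 3′-most DSP probe, A_73_116792, read 3.56 in CTR and between 3.02 at 2 h and 3.77 at 8 h elsewhere, and its changes were 0.07 at 4 h and -0.29 at 16 h. A_73_P062971, at the stop codon 691 bases upstream, changed by 0.50 at 4 h and 0.44 at 16 h, and A_73_P458711, at 6701 bases, by 0.74 and 0.84. With the local offset subtracted, these 3 probes gave -0.19, 0.33 and 0.32 at 4 h and, with the sign of the 3′-most turned, 0.35, 1.04 and 0.41 at 16 h. At 4 h and 16 h the change was thus smallest at the 3′-most and largest at the 5′-most probe. With normexp at 4 h, however, A_73_P458711 (0.68) was below the 3′-most (0.73). On the log2 values used here the same order held on the rest of slide 2. From 3′ to 5′ the changes were -0.49, -0.22, 0.24 and 0.37 at 30 min, and -0.55, -0.13, 0.36 and 0.83 at 2 h. The 30 min scanner intensity of A_73_P458711, not used here, was 21.6 without the flag. At 12 h the 4 probes lay between -0.24 and 0.19, and at 8 h between -0.13 and 0.61. A_73_P263316 and A_73_P373981 were dim in CTR and gave bounds of 1.04 at 16 h for the former, and of 0.62 at 4 h and 0.45 at 12 h for the latter.

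**Figure D3:**
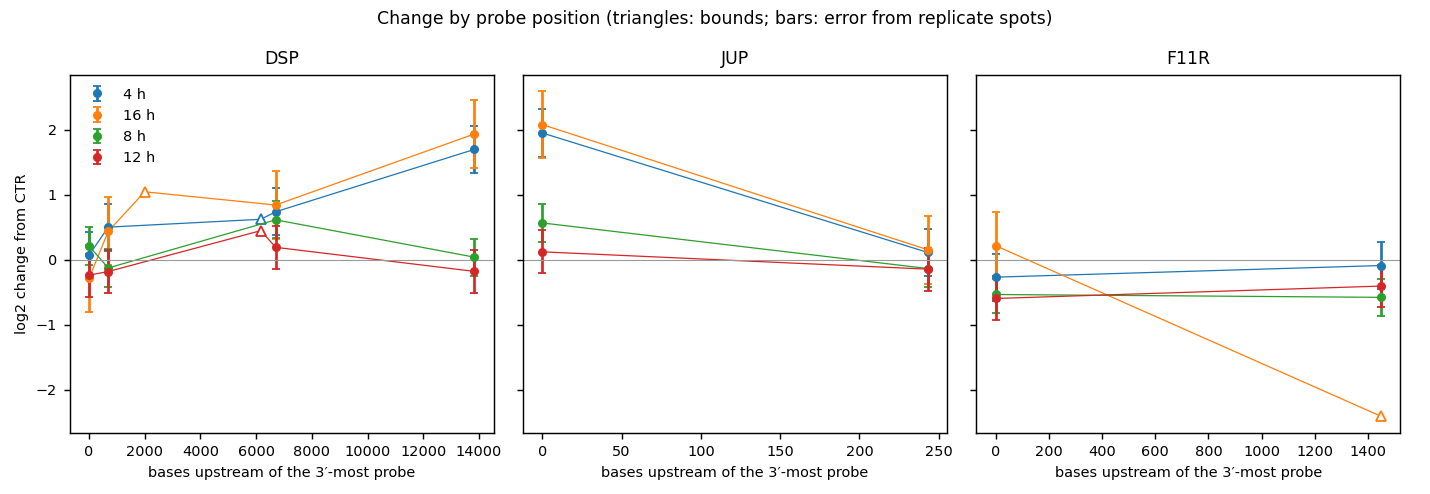
Log2 change from CTR at 4 h, 16 h, 8 h and 12 h against the distance of each probe, in bases, from the 3′-most probe of DSP (left), JUP (middle) and F11R (right). Bars are the error from replicate spots and open triangles are bounds. At 4 h and 16 h DSP runs from near 0 at the 3′ end to 1.69 and 1.93 at the 5′-most probe, and JUP differs between probes 243 bases apart.

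Across slides, 2 of the 10 junction probes detected everywhere (JUP A_73_P508098 and DSP A_73_P348601) had every slide 2 array above every slide 1 array, as did 10.8% of the 7601 such probes of the array, and 1 (CLDN4 A_73_102672) had every slide 2 array below, as did 12.8%. These patterns take 30 min from the deposited log2 values. By the 30 min scanner intensities, not used here, the JUP and DSP spots were not flagged. The CLDN4 spot read 295 against a 75th percentile of 48.6, and in CTR 586 against 212. Within a slide, no junction probe detected on all 4 of its arrays ranged over 3-fold. That leaves out F11R A_73_P386251, which was dim on part of slide 2. On that slide it read -1.44 at 2 h and 1.01 at 4 h, more than 3-fold apart. Of 13 probes detected on all 4 arrays of slide 1 the range was between 0.24 and 1.07, with a median of 0.56 (0.62 over all probes). On that slide 1.76% of all probes ranged over 3-fold. Of 11 on slide 2 it was between 0.60 and 1.56, with a median of 0.84 (0.80 over all probes), where 11.1% of all probes ranged over 3-fold.

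**Figure D4:**
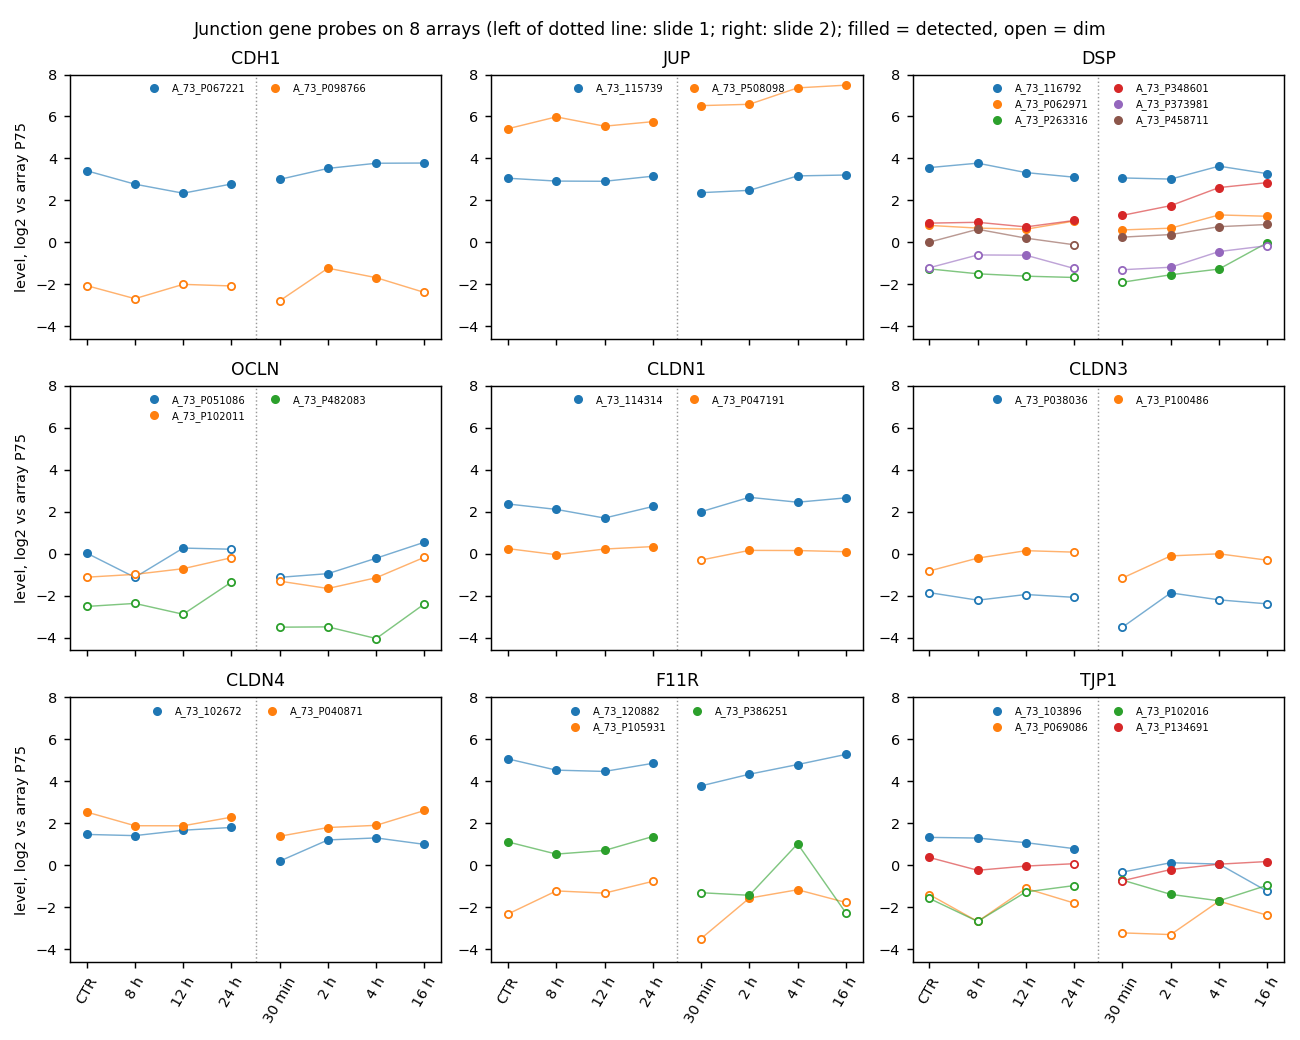
Level of each junction probe (log2 intensity minus the 75th percentile of the array) on the 8 arrays, 1 panel per gene, with slide 1 left of the dotted line and slide 2 right of it. Filled points were detected and open points were dim. JUP A_73_P508098 and DSP A_73_P348601 step up between the slides, and F11R A_73_P386251 drops at 30 min, 2 h and 16 h.

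Of the membrane proteins of the tight junction, F11R held the largest differences. A_73_P386251 read 1.11 in CTR, 0.53, 0.70 and 1.36 on the rest of slide 1 and 1.01 at 4 h, but -1.44 at 2 h, and was dim at 30 min and 16 h. CTR, the other arrays of slide 1 and the 4 h array lay together, and the other three far below them. The change was -2.54 ± 0.36 at 2 h, 5.83-fold lower, and only 1.71% of probes detected on both arrays had a lower one. At 16 h the signal was at least 5.30-fold below CTR, and the 30 min bound was 2.27-fold. Normexp correction brought the 2 h and 16 h values to -1.41 and -1.30, under 3-fold and in the same direction.

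The 3′-most F11R probe, A_73_120882, lies 1449 bases further and read 5.06 in CTR and 3.78, 4.33, 4.79, 4.53, 4.47, 5.28 and 4.85 from 30 min to 24 h. It was lowest at 30 min and 2 h, with changes of -1.28 ± 0.30 and -0.73 ± 0.36, and at 8 h and 12 h it changed by -0.54 and -0.60. Bright probes around this spot were high in CTR, by 0.40, and with the local offset subtracted the changes were -0.60 and -0.18 at 30 min and 2 h and -0.23 and -0.14 at 8 h and 12 h, of which only the 30 min value exceeded its error. Scaling arrays to their median gave -0.33 at 30 min and -0.03 at 2 h, and normexp -0.06 at 2 h. At 16 h its change was 0.21, within the error, where the other probe was at least 5.30-fold lower. On the log2 values used here, both probes therefore read F11R below CTR at 30 min. The 30 min scanner intensities put A_73_P386251 at 167 against a 75th percentile of 48.6, and in CTR it was 457 against 212. On that scale A_73_P386251 stood above CTR at 30 min. At 2 h the lower value of A_73_120882 depended on the processing, and at 16 h the probes disagreed. The third, A_73_P105931, was detected at 2 h and 4 h only and gave no change.

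On the log2 values used here, both CLDN4 probes were lowest at 30 min. A_73_102672 read 1.46 in CTR and 0.19, 1.20, 1.30, 1.41, 1.66, 0.99 and 1.80 from 30 min to 24 h. A_73_P040871 read 2.53 in CTR and 1.38, 1.79, 1.90, 1.88, 1.87, 2.60 and 2.29. The 30 min changes, -1.27 ± 0.30 and -1.16 ± 0.30, were 2.42-fold and 2.23-fold lower. They were -0.31 and -0.20 when arrays were scaled to their median, which moved all detected probes from -0.25 to 0.71. With the 30 min scanner intensities, not used here, the change of A_73_P040871 turned to 1.61. From 2 h to 12 h only A_73_P040871 stood below CTR by more than its error, at -0.74, -0.63, -0.65 and -0.66, of which the 4 h value turned to 0.46 when arrays were scaled to their median. The 2 h value was then -0.03, normexp gave -0.11, 0.00 and -0.24 at 2, 4 and 12 h, and the local offset brought the 4 h value to -0.14, all within the error. With the local offset subtracted the other probe was below CTR by more than its error as well, at -0.52 at 2 h, -0.50 at 8 h and -0.34 at 12 h.

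CLDN1 moved little. A_73_114314 read 2.37 in CTR, 1.70 at 12 h, its lowest, and 2.69 at 2 h, its highest, with a change of -0.67 ± 0.33 at 12 h and of at most 0.37 in size at the other time points. The overlapping probe A_73_P047191 had measured changes between -0.29 and 0.10, and -0.02 at 12 h. With arrays scaled to their median, the 30 min change of A_73_114314 turned from -0.37 to 0.59. Normexp turned the 8 h change of A_73_P047191 from -0.29 to 0.24. These probes share 24 bases, and with the local offset subtracted their 12 h values were -0.48 and -0.30, closer than the error. CLDN3 A_73_P100486 was dim in CTR and detected from 2 h to 12 h, where its bounds were 0.72, 0.82, 0.61 and 0.97, so that it was at least 1.95-fold higher at 12 h. Bright probes around that spot were low in CTR, by 0.54, and high by 0.39 and 0.36 at 8 h and 12 h. With this offset subtracted the values were 0.29, 0.23, -0.32 and 0.07, so that the higher signal was lost at 12 h and turned at 8 h. CLDN3 A_73_P038036 was detected at 2 h alone.

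OCLN A_73_P051086 read 0.03 in CTR, -0.95 at 2 h, -0.21 at 4 h, and 0.27 and 0.55 at 12 and 16 h, and was dim on the other arrays. Its change of -0.98 ± 0.36 at 2 h was 1.97-fold lower, those at 4 h and 12 h were inside the error, and that at 16 h (0.52) equalled it. The 2 h change was -0.28 with arrays scaled to their median, -0.43 with normexp and -0.37 with the local offset subtracted. The 4 h change turned to 0.85 with the first of these and 0.07 with normexp, and the local offset made it 0.50 and the 12 h change 0.60, both above the error. OCLN A_73_P102011, dim in CTR, gave a single bound of 0.35 at 12 h.

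For the scaffold TJP1, 1 of the 4 probes was lower throughout slide 2 on the log2 values used here. A_73_103896 read 1.32 in CTR and 1.29, 1.07 and 0.79 on the rest of slide 1, and 0.12 at 2 h and 0.05 at 4 h, and it was dim on the other arrays of slide 2 (30 min and 16 h). Every slide 2 array was below every slide 1 array on these values. The 30 min scanner intensities, not used here, put this probe at 213, flagged, against a 75th percentile of 48.6, and in CTR it was 531 against 212. On that scale it stood above CTR at 30 min. The changes were -1.21 ± 0.36 at 2 h and -1.27 ± 0.36 at 4 h (-0.50 and -0.18 with arrays scaled to their median, -0.50 and -0.59 with normexp), and the bounds were 2.63-fold below CTR at 30 min and 5.93-fold at 16 h. Bright probes around this spot were low by 0.66 at 16 h, and the bound with the local offset subtracted was -2.08. Normexp correction gave -1.47 there. A_73_P134691, 1059 bases upstream, had changes between -0.61 at 8 h and -0.19 at 16 h, and did not show the 16 h difference. At 2, 4, 12 and 16 h the sign of these small changes depended on the processing. They were 0.13 and 0.77 at 2 and 4 h with arrays scaled to their median, and 0.08 at 16 h with normexp. With the local offset subtracted they were 0.10, 0.01 and 0.10 at 4, 12 and 16 h. The 8 h change kept its sign with the local offset subtracted, at -0.09. The other TJP1 probes, A_73_P069086 and A_73_P102016, gave no change at any time point.

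Other junction genes were taken from lists chosen with earlier results of these data known. Among 60 adherens junction probes with 27 to 30 values per time point, 6, 8, 3 and 5 were 3-fold lower on the 4 arrays of slide 2 in order of time, against 5.24%, 9.31%, 6.28% and 8.74% of all probes. At 16 h 1 was higher, against 7.44% of all probes, and none passed on slide 1. The median was -1.12 at 30 min and 2 h, and -0.33 at 24 h. LIMA1, an actin-binding protein, had changes of -2.64, -2.30, -1.97, -0.82, -0.45, -3.31 and -0.29 in order of time. CTNNA1, the alpha-catenin that ties cadherins to actin, was between -2.91 at 16 h and -0.37 at 8 h, ACTN1, an actin crosslinker, between -2.35 and -0.72, and CTNND1 (p120-catenin) between -0.46 and 0.62.

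Desmosome probes other than JUP and DSP were mostly near CTR. Of 8 to 11 with a value, 1, 2 and 2 were 3-fold higher at 2, 4 and 16 h (7.64%, 3.72% and 7.44% of all probes), and none was lower. PKP1, a plakophilin of the desmosomal plaque, was higher by 1.18, 1.57, 2.55 and 0.51 on slide 2. DSC2, a desmosomal cadherin, changed by 0.52, 1.02, 1.24 and 0.92 at the same time points and by 0.01 to 0.25 at the others. PPL was higher by 0.89 at 8 h, and PERP changed by between -0.83 and 0.12. On the slide of CTR, PKP1 changed by 0.13, 0.45 and 0.01.

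Gap junction probes had the lowest medians of the junction lists. Of 7 or 8 gap junction probes with a value, 3, 5, 3 and 4 were 3-fold lower on slide 2 (5.24%, 9.31%, 6.28% and 8.74% of all probes) and 1 at 12 h (0.602%), and 1 was higher at 16 h (7.44%), with medians between -2.23 at 2 h and -0.45 at 24 h. GJB2, which encodes connexin 26, was lower at all 7 time points on its 3 probes detected throughout (apart from A_73_112683 at 4 h, which was 0.05 with arrays scaled to their median), with changes of -2.55, -2.66, -2.33, -1.38, -1.66, -1.94 and -0.67 on A_73_P445246, so that the 12 h value passed 3-fold on the slide of CTR. The gap junction values came from only 4 or 5 genes, so the 3 GJB2 probes are not separate members and weigh heavily in these counts and medians. They held every lower call at 30 min and the lower call at 12 h. Of 15 or 16 hemidesmosome probes (7 genes), 4, 6, 2 and 3 were lower on slide 2 and 1 at 24 h (0.862% of all probes), and none was higher. The shares of all probes on slide 2 are those given for gap junctions. LAMB3, a chain of laminin-332, changed by -2.72, -3.25, -2.84 and -3.23 on slide 2 and by -0.31, -0.74 and -0.93 on slide 1, whereas ITGB4 lay between -0.51 and 0.76.

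Of 94 other tight junction probes, 22 to 31 had a value. On slide 2, calls upward numbered 2, 2, 2 and 6 (9.13%, 7.64%, 3.72% and 7.44% of all probes), and downward 1, 2, 2 and 0 (5.24%, 9.31%, 6.28% and 8.74%), with 1 lower at 12 h (0.602%). CGN (cingulin) had changes between -1.30 at 30 min and 0.48 at 16 h. Regulators of the epithelial state gave 1 higher and 1 lower of 14 at 30 min, 2 lower of 16 at 2 h, 2 higher of 16 at 16 h, 1 higher of 14 at 24 h (0.223% of all probes), and none otherwise. OVOL1, a repressor that favours the epithelial state, was higher by 0.98, 0.61, 1.36 and 1.31 on slide 2 and between -0.44 and 0.11 on slide 1, ELF3 between 0.11 and 1.05 throughout, and TCF4 lower by 1.76 at 30 min and 2.01 at 2 h. OVOL2, on the same list, went both ways, with changes of -1.39, -0.57, 0.15, -0.51, -0.34, 1.31 and -0.21 in order of time. Its 2 h change was 0.13 with arrays scaled to their median.

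Epithelial markers went both ways on slide 2, with 3, 5, 8 and 6 higher and 7, 6, 4 and 6 lower of 27, 32, 31 and 31 in order of time, and none on slide 1. Of all probes, 9.13%, 7.64%, 3.72% and 7.44% were higher and 5.24%, 9.31%, 6.28% and 8.74% lower on the same arrays. KRT8, a keratin of simple epithelium, changed by -3.70, -2.62, -2.84 and -2.28 on A_73_108833 there. KRT15, a basal keratin, was higher by 2.52, 2.67, 3.11 and 3.06 on A_73_112945, and MUC1, a mucin of the apical surface, by 1.77, 2.42, 3.37 and 3.92. On slide 1 these 3 probes stayed between -0.60 and 0.76.

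The mean pattern of the 10 junction probes detected on all arrays, each centred on its own mean, was 0.03 in CTR and -0.42, -0.03, 0.40, -0.13, -0.32, 0.50 and -0.03 from 30 min to 24 h. It was highest at 16 h and 4 h and lowest at 30 min and 12 h. Over all probes detected on every array the same mean was 0.14 in CTR and -0.12, -0.13, 0.08, 0.05, -0.11, 0.10 and -0.02, with the sign of the junction mean on every array except that of 8 h. The probes most like it among 7526 were those of DDR1 (Pearson's r of 0.970), a collagen receptor, ABHD14B (0.968), HSD17B8 (0.965), VDAC3 (0.962), a mitochondrial channel, and STK25 (0.961). These values describe 8 arrays that share 2 slides, and the list is a selection of the highest. Single junction probes followed the mean with r between 0.151 for CLDN4 A_73_102672 and 0.918 for DSP A_73_P062971.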

How the data were processed

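Gene expression was measured on 8 arrays, 1 per condition. The authors scanned the slides on a GenePix scanner and extracted spots with Feature Extraction 9.5.3.1, and the processed intensity of each spot was deposited without scaling between arrays. The authors also deposited log2 values scaled to the 75th percentile, with the median of every probe set to 0, which supplied the 30 min array here. The mean and local background intensities, deposited as scanned, served 1 alternative. Outlier spots were dropped, log2 intensities of 1 probe were averaged, and the 75th percentile over 43653 probes was subtracted. That percentile lay at an intensity between 48.6 (30 min, not used) and 423 (12 h), and 23.3% to 40.2% of probes were detected. A call was a change of 3-fold, measured or as a bound. Surroundings were the bright probes within 10 spots. Members and lists were chosen with earlier results of these data known. Named list genes were up to 3 highest and 3 lowest median changes per list among probes detected on all arrays, with HSPA1A and HSPH1 as heat check. A result of this rule is not reported here. HSPH1 changed by 1.49, 1.35, 0.70, 2.88, 0.98, -1.19 and -0.02. Alternatives were other scalings, normexp (limma 3.58.1, offset 50), the deposited log2 values, other detection filters, a 2-fold threshold and genes counted once. The computation of calls was checked on simulated data with known changes. Python 3.11.15 and R 4.3.3 were used.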

Additional observations from a re-analysis of the deposited data

Results flagged for a closer look

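Signal above the control appeared in 2 of the 3 probes left out for the dark rectangle, which no comparison used. JUP A_73_P212782 was dim in CTR and had levels of -0.87, -0.45 and 0.63 at 2, 4 and 16 h, and bright probes around it were low by 1.68 in CTR. CDH1 A_73_P051051, at the edge of the rectangle, was dim in CTR and had levels of -1.37 at 2 h and -1.57 at 4 h, and bright probes around it were low by 0.37 in CTR. These levels were not turned into changes, and the part of the dark rectangle in them was not tested. Values that stand apart among replicates could not be sought, since each group holds 1 array.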

How the results depend on the processing

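No paired analysis was possible because each condition had 1 array. Calls on the 26 junction probes numbered few, and a count of 0 or 1 moves easily. With the median of each array as scale, which moved the median of all detected probes to 0.71, 0.29 and 0.91 at 30 min and at 2 and 4 h, and to -0.56 at 24 h, the higher calls were 1, 1 and 6 there, and the junction medians became 0.27, 0.37 and 1.00. Relative to all detected probes, the measured junction probes kept differences of -0.16, 0.01 and 0.17 there. With normexp, which has no 30 min value, 1 probe was higher and 0 lower at 2 h, 1 higher and 0 lower at 16 h, and the medians were 0.23, 0.44 and 0.18 at 2, 4 and 12 h. At 30 min the scanner intensities gave 6 higher, 3 lower and a median of 1.14, the scanner flag 2 lower and -1.11, and no filter 4 lower. The scanner intensities also moved all 15 single probe values compared at 30 min by more than their error. Without the filter 2 probes were lower at 2 h. Probes detected on all 8 arrays gave 0 lower at 2 h and 16 h. With the local offset subtracted, chosen after seeing the data, 2 were lower at 2 h and 1 higher at 4 h. At 2-fold, 1 was higher and 5 lower at 30 min, 1 and 2 at 2 h, with 1 lower at 4 h and 1 at 12 h. With genes counted once, 0 were higher at 4 h, and 0 were higher or lower at 16 h. The cause was not tested. The deposited log2 values, quantile scaling, the bright-probe percentile and the dark-rectangle probes kept moved no count or median beyond its limit. Among junction probes detected on all 4 arrays of a slide, 0 differed by 3-fold within it, also with each array set against the slide mean. That count leaves out F11R A_73_P386251 on slide 2, where it was dim at 30 min and 16 h. Among single probes 560 of 719 alternative values moved by less than their error and no called change changed sign. Most of the 560 came from settings close to the main one, with 119 from the deposited log2 values, 117 from the bright-probe percentile and 118 from quantile scaling. With arrays scaled to their median 62 values moved by more than their error and 56 did not. The same counts were 42 and 59 with normexp, and 36 and 81 with the local offset subtracted. The lowest detectable level was between -2.65 (4 h) and -0.08 (24 h), so dim probes are limited most at 24 h and 30 min.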
